A study of Mus musculus with 6 samples.

Results

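DNA methylation was examined at 34 mouse genes of meiotic recombination and chromosome synapsis in germ cells of male mice exposed to chronic social defeat stress (CSDS), a paradigm in which a mouse is repeatedly subordinated by an aggressive mouse, and of Control mice. The genes were taken by name, but the list was chosen with earlier results of these data known. Of the 34, 32 had at least 3 covered cytosines in the gene or within 1 kb of either end, among 17342 of 21887 protein-coding genes that did so. Tex12 had 0 covered cytosines and Rec8 had 2, so neither was measured. The study compared 3 CSDS libraries with 3 Control libraries by reduced representation bisulfite sequencing (RRBS), which reads cytosines near the cut sites of a restriction enzyme and scores each CpG cytosine as methylated if bisulfite left it unconverted. Beyond male germ cells and the CSDS or Control treatment, the labels used here give no strain, age, germ cell stage or number of animals. They do not say that replicates came from separate animals, so p-values measure the spread between these libraries, which may be technical.

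Meiosis begins with programmed DNA breaks made by SPO11 and its partners, at places that PRDM9 marks in the mouse. The recombinase DMC1 then helps pair each broken end with the homologous chromosome, while cohesins and HORMA-domain proteins build the chromosome axes and the synaptonemal complex zips the axes together. Many of these genes are transcribed only in germ cells. In somatic cells several of them carry methylated promoters, whereas germ cells keep them largely unmethylated.

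The 6 libraries listed between 2420308 and 3156788 cytosines each at a coverage of 10 reads or more, with median coverages of 44 to 50 reads, and 2206320 cytosines present in all 6 were used. Their levels correlated at 0.967 to 0.982 between libraries, across cytosines, which are not independent replicates. CSDS libraries 2 and 3 stood apart from the other 4. The median unconverted share at 27 mitochondrial cytosines, where little methylation is assumed although 3 were above 90% in every library, was 8.50%, 4.41% and 4.53% in CSDS libraries 1 to 3, against 8.90%, 8.84% and 10.04% in Control libraries 1 to 3. At the promoter ends of 26 broadly expressed genes the median level was 13.3%, 8.14% and 9.66% in the CSDS libraries, against 14.3%, 14.3% and 14.1% in the Control libraries. Wherever values of single libraries are given, they stand in the order of replicates 1 to 3. Each difference is the mean CSDS level minus the mean Control level in percentage points of methylation, and the mitochondrial correction rescales every library by its own mitochondrial share.

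Sequences of 6 promoters show where the covered cytosines lie. Hormad1 and Sycp3 had some of the higher promoter-end levels among the members and Hfm1 and Mnd1 some of the lower ones, while Sycp1 and Psmc3ip were added after their values were seen, for their enzyme sites. Each runs from 250 bases before to 50 after the annotated transcript start, 5′ to 3′ on the gene's strand, from RefSeq on GRCm38.p6. Capitals mark CpGs with at least 1 cytosine covered in all 6 libraries, and CCGG in capitals marks such a CpG inside CCGG, the site cut by MspI, the usual enzyme of RRBS.
Hormad1 (chr3:95559427-95559726, + strand): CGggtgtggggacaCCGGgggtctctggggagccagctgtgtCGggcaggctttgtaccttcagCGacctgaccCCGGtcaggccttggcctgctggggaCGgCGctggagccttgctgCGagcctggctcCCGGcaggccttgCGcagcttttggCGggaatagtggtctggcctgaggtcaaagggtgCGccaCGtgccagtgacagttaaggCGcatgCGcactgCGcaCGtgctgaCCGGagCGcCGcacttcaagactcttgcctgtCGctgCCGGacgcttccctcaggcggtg
Sycp3 (chr10:88459337-88459636, + strand): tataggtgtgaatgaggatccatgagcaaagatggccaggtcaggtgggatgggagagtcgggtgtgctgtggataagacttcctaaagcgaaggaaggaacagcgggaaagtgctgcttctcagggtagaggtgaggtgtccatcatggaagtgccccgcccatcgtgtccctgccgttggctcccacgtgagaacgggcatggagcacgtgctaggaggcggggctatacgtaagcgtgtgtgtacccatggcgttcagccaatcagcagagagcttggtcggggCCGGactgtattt
Sycp1 (chr3:102936051-102936350, - strand): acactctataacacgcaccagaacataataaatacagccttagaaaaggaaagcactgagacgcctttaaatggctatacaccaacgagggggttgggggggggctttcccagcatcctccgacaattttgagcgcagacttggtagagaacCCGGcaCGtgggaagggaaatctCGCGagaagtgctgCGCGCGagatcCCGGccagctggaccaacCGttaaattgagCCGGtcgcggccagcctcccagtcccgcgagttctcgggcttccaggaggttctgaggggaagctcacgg
Psmc3ip (chr11:101095386-101095685, - strand): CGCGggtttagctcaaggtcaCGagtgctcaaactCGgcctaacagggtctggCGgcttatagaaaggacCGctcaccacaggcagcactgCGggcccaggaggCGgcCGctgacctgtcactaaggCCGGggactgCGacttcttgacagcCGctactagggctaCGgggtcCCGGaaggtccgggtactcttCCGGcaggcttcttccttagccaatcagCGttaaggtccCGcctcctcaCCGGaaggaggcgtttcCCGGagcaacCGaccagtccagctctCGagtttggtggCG
Hfm1 (chr5:106925841-106926140, - strand): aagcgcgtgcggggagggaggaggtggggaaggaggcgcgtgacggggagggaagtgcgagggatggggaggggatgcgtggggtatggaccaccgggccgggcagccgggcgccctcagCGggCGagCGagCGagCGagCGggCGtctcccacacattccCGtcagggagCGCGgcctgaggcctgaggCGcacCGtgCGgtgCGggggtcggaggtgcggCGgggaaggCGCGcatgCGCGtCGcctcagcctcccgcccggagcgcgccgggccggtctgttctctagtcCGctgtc
Mnd1 (chr3:84155737-84156036, - strand): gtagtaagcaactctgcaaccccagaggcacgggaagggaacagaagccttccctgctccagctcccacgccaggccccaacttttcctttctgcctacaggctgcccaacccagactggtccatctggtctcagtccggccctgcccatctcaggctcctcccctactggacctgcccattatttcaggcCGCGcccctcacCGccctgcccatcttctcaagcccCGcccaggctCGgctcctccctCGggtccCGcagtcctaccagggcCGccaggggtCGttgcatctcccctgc

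Covered CpGs numbered 22 in the 300 bases of Hormad1 and 22 in those of Psmc3ip, out of 24 CpGs in each. Hfm1 carried 41 CpGs, 21 of them covered, and Mnd1 12, of which 9 were covered. Sycp3 had 1 covered CpG in this stretch and Sycp1 10, and their other cytosines lay elsewhere in the 1 kb either side of the gene start. The sequences of Stag3 and Rnf212, whose windows had the highest levels, held 0 covered CpGs and are not shown.

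The promoter end was taken as 1 kb either side of the gene end at which transcription starts, and 25 members had at least 3 covered cytosines there. Of the 25 windows, 21 (84.0%) had a mean level below 20% over the 6 libraries and 0 were above 80%, beside 81.2% and 6.05% of the 13923 promoter-end windows of all genes. The median member stood at 11.6% in CSDS and 16.6% in Control, and the median of all windows at 11.02% in CSDS and 14.8% in Control. Member levels ran from 7.52% at Hfm1 to 76.2% at Stag3. In bulk germ cells a level is an average over all cells of a library, so a change in the mix of cells and a change within a cell type cannot be told apart.

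**Figure D1:**
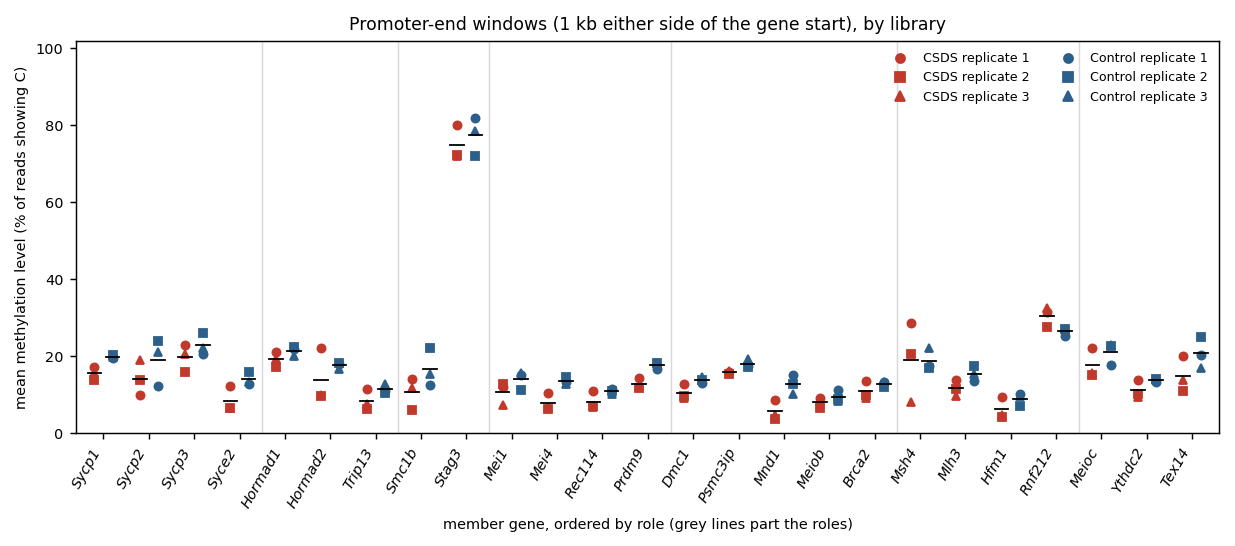
Methylation level in percent at the promoter end of the 25 measured members, grouped by role, with CSDS libraries to the left of Control libraries and black bars for group means (n = 3 each). Most members sit between 5% and 25%, and Stag3 stands alone at 74.8% in CSDS and 77.5% in Control.

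Members of the synaptonemal complex, the protein zipper between paired chromosomes, had promoter-end means of 11.2% to 21.3% over the 6 libraries. Sycp1, its transverse filament, stood at 17.2%, 13.8% and 15.6% in the CSDS libraries, against 19.5%, 20.4% and 19.8% in the Control libraries. All CSDS libraries were below all Control libraries (−4.34 points, adjusted p = 0.150). Sycp2, an axial element protein, stood at 9.82%, 13.7% and 18.97% in the CSDS libraries, against 12.2%, 23.8% and 21.02% in the Control libraries, and Control library 1 lay below CSDS libraries 2 and 3. Sycp3, its axial partner, stood at 22.8%, 15.8% and 20.6% in the CSDS libraries, against 20.5%, 25.9% and 22.1% in the Control libraries, with overlap. Syce2, a central element protein, stood at 12.2%, 6.62% and 6.57% in the CSDS libraries, against 12.9%, 15.8% and 13.2% in the Control libraries. There all CSDS libraries were lower, with a difference of −5.50 points, but CSDS library 1 lay just below Control library 1 (adjusted p = 0.118). Syce1 and Syce3, also of the central element, had no covered cytosines in this window.

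Of the HORMA-domain proteins, which coat unsynapsed axes, Hormad1 stood at 21.04%, 17.2% and 19.3% in the CSDS libraries, against 21.8%, 22.2% and 19.9% in the Control libraries. CSDS library 1 was above Control library 3, so the groups overlapped. Hormad2 stood at 22.1%, 9.75% and 9.90% in the CSDS libraries, against 17.8%, 18.1% and 16.7% in the Control libraries, with CSDS library 1 the highest of the 6. Trip13, the ATPase that removes HORMA proteins from synapsed axes, stood at 8.45 ± 2.67% in CSDS and 11.4 ± 1.32% in Control (SD, n = 3 each) and its window overlaps the neighbouring gene Brd9.

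The cohesin subunits, which hold sister chromatids in meiosis, stood far apart. Smc1b stood at 14.1%, 5.93% and 11.7% in the CSDS libraries, against 12.6%, 22% and 15.4% in the Control libraries, a difference of −6.08 points with overlapping groups, in a window shared with Ribc2. It was −3.41 points without Control library 2, −3.77 without CSDS library 2, −2.21 at a coverage of at least 20 reads and −3.24 with reads summed. Stag3 stood at 80.2%, 72.4% and 71.9% in the CSDS libraries, against 81.8%, 72.1% and 78.6% in the Control libraries, over 20 cytosines, far above every other member window. Its transcript start in the promoter table lies 7995 bases inside the listed gene, and around that start 44 cytosines stood at 16.9%, 10.7% and 13.1% in CSDS against 16%, 18.6% and 12.9% in Control. The window at the listed gene end overlaps Gal3st4. Both Stag3 windows overlapped between groups. Rad21l had no cytosines at its promoter end.

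Genes that make or place the breaks were low at their listed ends. Mei4, a partner of SPO11, stood at 10.3%, 6.34% and 6.76% in the CSDS libraries, against 13.3%, 14.7% and 12.8% in the Control libraries over 49 cytosines (chr9:81863542-81863849). The CSDS libraries were all lower (−5.77 points, adjusted p = 0.118). Prdm9, the histone methyltransferase that selects break sites, stood at 14.4%, 11.8% and 12.2% in the CSDS libraries, against 16.6%, 18.2% and 18.1% in the Control libraries over 44 cytosines (chr17:15563519-15564842). Here too no CSDS library reached a Control library (−4.87 points, adjusted p = 0.118). Mei1, needed for break formation in mice, stood at 11.9%, 12.6% and 7.35% in the CSDS libraries, against 15.1%, 11.1% and 15.7% in the Control libraries, with overlap, at a listed end 12402 bases from the transcript start in the promoter table. Rec114, which works with MEI4, stood at 10.8%, 6.93% and 6.82% in the CSDS libraries, against 11.3%, 10.9% and 10.3% in the Control libraries at the outer end of its listed gene, 81147 bases from the transcript start in the promoter table and next to Hcn4, which it overlaps. Around the listed transcript start of Rec114 there were 0 covered cytosines. Zcwpw1 had none at the promoter end and Spo11 fewer than 3.

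Mnd1, which with HOP2 helps DMC1 invade the homologue, had the largest difference among the 25 windows. It stood at 8.50%, 3.58% and 4.82% in the CSDS libraries, against 15.1%, 12.7% and 10.3% in the Control libraries over 38 cytosines (chr3:84155374-84155844), with all CSDS libraries lower (−7.05 points, adjusted p = 0.118). Part of this rested on Control library 1: at the 9 covered cytosines of the sequence above, the level was 6.33%, 2.38% and 5.67% in CSDS against 37.4%, 14.5% and 5.12% in Control. Without Control library 1 the window difference was −5.85 points. Depth was uneven there, at 684 to 3282 reads per library, with 8354 reads in CSDS and 3787 in Control. Psmc3ip, which encodes HOP2, stood at 15.98%, 15.3% and 16.2% in the CSDS libraries, against 17.4%, 17.3% and 19.2% in the Control libraries, all CSDS lower by a small margin (−2.15 points, adjusted p = 0.194), in a window shared with Retreg3. Dmc1, the meiotic recombinase, stood at 12.8%, 9.59% and 9.12% in the CSDS libraries, against 12.9%, 13.8% and 14.7% in the Control libraries, again with no overlap (−3.30 points, adjusted p = 0.209). CSDS library 1 lay just under Control library 1 there. Meiob, a single-strand DNA binding protein, stood at 9.07%, 6.47% and 8.42% in the CSDS libraries, against 11.1%, 8.83% and 8.26% in the Control libraries and overlapped. Brca2, the loader of recombinases, averaged 10.9 ± 2.33% in CSDS and 12.8 ± 0.765% in Control (SD, n = 3 each). Spata22, the partner of MEIOB, had no promoter-end cytosines.

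Among the crossover genes, Rnf212 and Msh4 were higher in CSDS by mean and Hfm1 and Mlh3 lower. Rnf212, a RING-domain protein that stabilises crossover sites, stood at 31.4%, 27.6% and 32.6% in the CSDS libraries, against 25.3%, 26.98% and 27.1% in the Control libraries. Every CSDS library was above every Control library, by 4.01 points on average (adjusted p = 0.318), at 10 cytosines with 426 to 717 reads per library (chr5:108774825-108774861). CSDS library 2 was within 1 point of Control library 3. With the mitochondrial correction the difference was 7.21 points. That correction raises CSDS against Control at low windows by construction. It moved the median difference of all windows from −3.40 to −0.272 points, so the wider gap at Rnf212 adds no evidence. Leaving out single libraries gave 2.98 to 5.49 points. Msh4, a subunit of the crossover-stabilising MutSγ, stood at 28.7%, 20.6% and 8.05% in the CSDS libraries, against 17.4%, 17.03% and 22.1% in the Control libraries over 8 cytosines, where the CSDS libraries spread more widely than the groups differed. Hfm1, a helicase, stood at 9.39%, 4.29% and 4.75% in the CSDS libraries, against 10.1%, 7.10% and 9.51% in the Control libraries, the lowest window of all members. Mlh3, of the resolving MutLγ, averaged 11.6 ± 2.01% in CSDS and 15.4 ± 1.93% in Control (SD, n = 3 each), and Msh5 had no cytosines there.

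Of the last group, Meioc, which with YTHDC2 keeps spermatocytes in meiotic prophase, stood at 22.2%, 14.99% and 15.7% in the CSDS libraries, against 17.7%, 22.5% and 22.9% in the Control libraries. Ythdc2, the RNA helicase partner, stood at 13.7%, 10.2% and 9.30% in the CSDS libraries, against 13.2%, 14% and 13.9% in the Control libraries. At both genes CSDS library 1 lay above Control library 1, so the groups overlapped. Tex14, needed for the bridges that join germ cells, stood at 19.9%, 10.9% and 13.9% in the CSDS libraries, against 20.4%, 25.03% and 17.01% in the Control libraries (−5.89 points, overlapping groups). Without Control library 2 the difference was −3.78 points and without CSDS library 2 it was −3.91. Its 23 cytosines are the same ones that give Rad51c, a neighbouring recombination gene, its value, so the pair is 1 measurement.

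Of the 25 members, 23 were lower in CSDS by mean, with a median difference of −3.30 points, but 96.2% of all windows were lower and their median was −3.40 points. All 3 CSDS libraries were below all 3 Control libraries at 7 members (Sycp1, Syce2, Mei4, Prdm9, Dmc1, Psmc3ip and Mnd1), beside 36.3% of all windows. They were all above at 1 member, Rnf212, beside 0.151% of all windows, which is 21 of 13923. The exact two-sided permutation p of such a member is 0.1, the smallest that 3 against 3 allows. The test across all windows was a quasi-binomial F test of the reads summed per window, with limma's moderation and Benjamini-Hochberg adjustment. It called a window at adjusted p under 0.05 and a difference of at least 10 points. It called 0 members and 0 of 13923 windows (0.0%). Unadjusted p was under 0.05 at 5 members (Mnd1, Syce2, Prdm9, Mei4 and Rec114), the lowest adjusted p among them being 0.118, and at 39.8% of all windows. Tested on logit values with limma, 48 windows were called, and edgeR called 42, with 0 members in either. Without CSDS library 1, 203 windows were called, again with 0 members, and the groups stood apart with CSDS lower at 18 of 25 members, beside 87.3% of all windows. Without Control library 1 they did so at 12, beside 46.2%.

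The lower levels went with the libraries of low unconverted share. CSDS libraries 2 and 3 were both below the other 4 libraries at 17 of 25 members, beside 85.4% of all windows. The member median was 13.7%, 10.95% and 9.74% in the CSDS libraries, against 15.1%, 17.3% and 15.7% in the Control libraries. After the mitochondrial correction the median member difference was −0.165 points and 15 of 25 were lower, and over all windows the median was −0.272 points with 58.2% lower. All CSDS libraries then lay below all Control libraries at 2 members, Mei4 and Prdm9, beside 7.56% of all windows, and above at 2, Rnf212 and Brca2, beside 4.13%. Mei4 differed by −2.63 points and Prdm9 by −1.85 points after correction, and Brca2 by 1.51 points. The mitochondrial correction took the mean level below 0 at Mnd1 in CSDS (−0.19%) and at Hfm1 in Control (−0.41%). At such low windows it removed more than was measured, so corrected levels are not true levels. With the correction by broadly expressed genes the member median turned to 0.448 points. Whether unequal bisulfite conversion accounts for the uncorrected differences was not tested beyond these corrections.

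**Figure D2:**
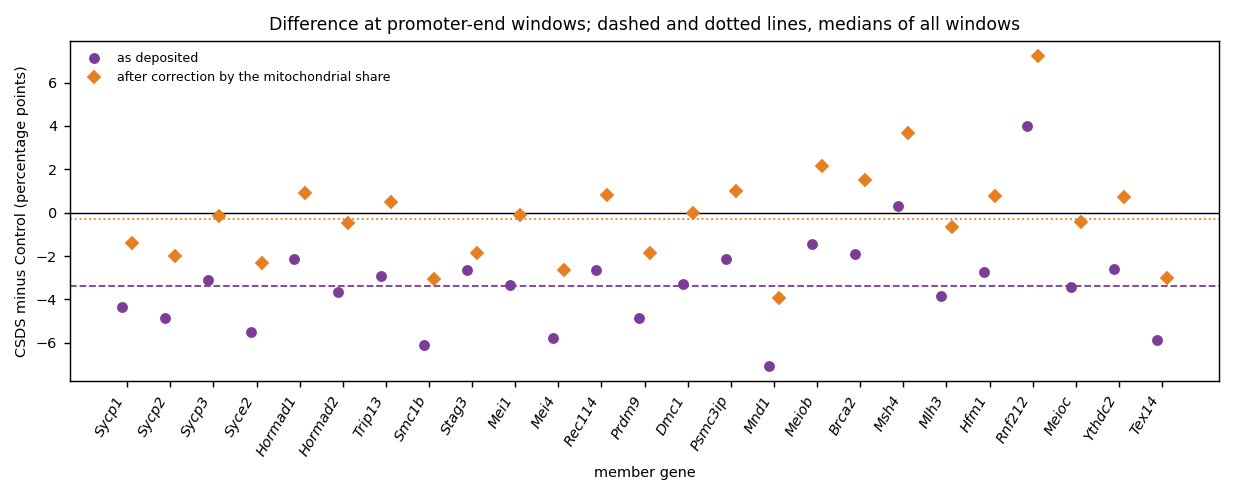
Difference in promoter-end methylation, CSDS minus Control in percentage points, for each of the 25 members before and after correction by the mitochondrial share. Before correction the differences run from −7.05 points at Mnd1 to 4.01 points at Rnf212 with a median of −3.30, and the corrected values centre near 0 with a median of −0.165.

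Within a promoter the level depended on whether a cytosine lay in CCGG. In the 300-base sequences of 12 members, 55 cytosines inside CCGG averaged 38.96%, 35% and 36.3% in the CSDS libraries, against 39.2%, 38.6% and 39.1% in the Control libraries. In 14 members, 237 cytosines outside CCGG averaged 8.41%, 3.58% and 4.98% in the CSDS libraries, against 10.2%, 8.85% and 9.43% in the Control libraries. Outside CCGG the level was low in every library and the groups did not overlap. The same held over all promoters, at 7.58%, 3.32% and 3.68% in the CSDS libraries, against 8.15%, 8.45% and 8.08% in the Control libraries. Inside CCGG the member groups overlapped, with CSDS library 1 above Control library 2, while over all promoters they did not. Of the members' CCGG cytosines 12 (21.8%) were above 90% and of their others 0. Over all promoters 16.8% of CCGG cytosines and 0.157% of the others were above 90%. The group difference was −2.23 points inside CCGG and −3.85 points outside in members, and −4.01 and −3.37 points over all promoters.

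The high CCGG cytosines were high on 1 strand only. At 25 member CpGs in CCGG with both strands covered the strands differed by a median of 68.2 points, and at 12 (48.0%) one strand was above 90% while the other was below 20%. At 94 CpGs outside CCGG the strands differed by a median of 2.34 points and 0 showed that split. Over all promoters 35.3% of 14987 CpGs in CCGG showed it and 0 of 71191 outside. Psmc3ip carried 4 such CpGs, with 97.8% or more on the higher strand and 4.25% to 8.64% on the lower. Methylation at a CpG is normally carried on both strands. The part of library construction in this split was not tested. At least 1 cytosine above 90% stood in 23 of the 25 member windows, all but Mnd1 and Msh4. Taking the median over cytosines in place of the mean, the typical member stood at 4.80% in CSDS and 9.14% in Control (median difference −3.19 points), with all CSDS libraries below all Control libraries at 7 members (28.0%) beside 28.9% of all windows. The median cytosine of Rnf212 stood at 15.6%, 15.2% and 17.7% in the CSDS libraries, against 7.48%, 10.8% and 10.5% in the Control libraries.

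**Figure D3:**
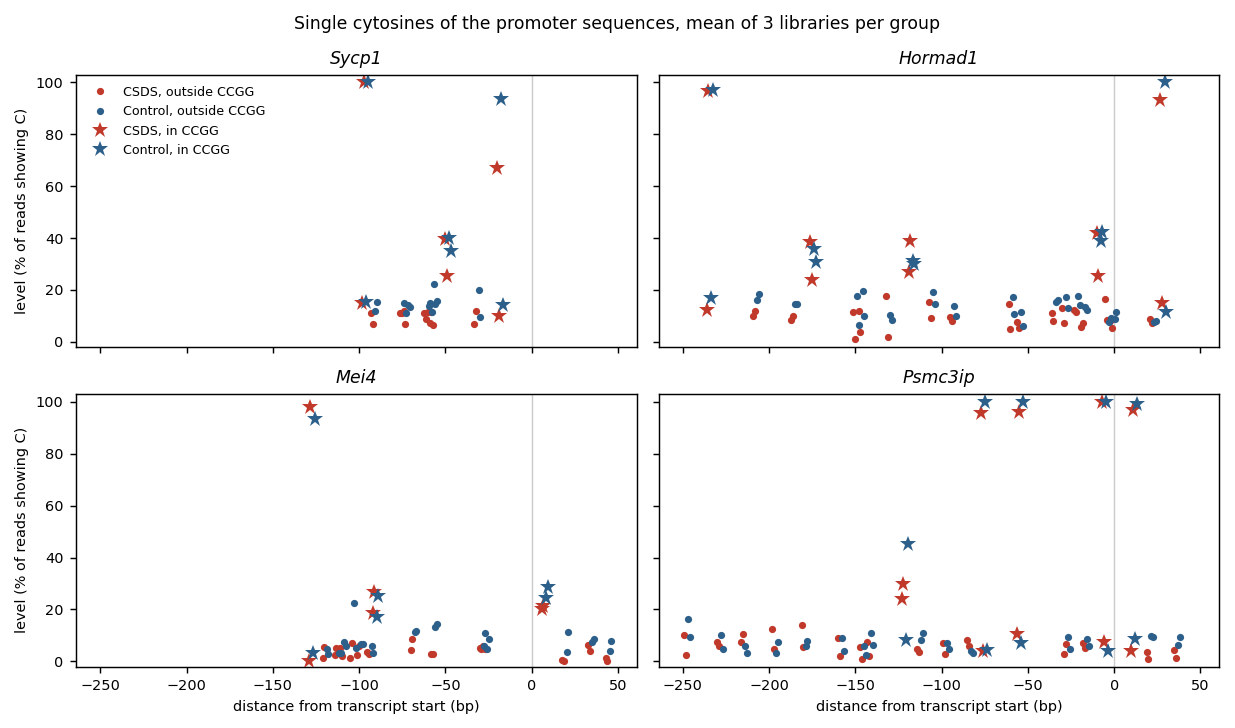
Level in percent of each covered cytosine against its distance in bases from the annotated transcript start, for Sycp1, Hormad1, Mei4 and Psmc3ip, with CSDS and Control group means and stars for cytosines in CCGG. Cytosines outside CCGG lie low in all 4 genes, and those near 100% are all stars.

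Gene bodies, taken as the gene without the 1 kb windows at its ends, were methylated. Of 25 measured members, 18 (72.0%) were above 80% over the 6 libraries and 15 above 90%, beside 54.7% of all bodies above 80%. The median body stood at 94.2% in CSDS and 94.7% in Control. CSDS was lower by mean at 20 of 25, with a median difference of −0.887 points, beside 82.2% and −1.56 points over 13510 bodies. All CSDS libraries were below all Control libraries at 3 members (Stag3, Rec114 and Tex14), beside 23.4% of all bodies, and above at 0, beside 1.07%. The F test with limma's moderation called 0 members and 0 of 13510 bodies. Unadjusted p was under 0.05 at 0 members and at 22.6% of all bodies, with 0 members called by limma on logit values or by edgeR. After the mitochondrial correction the median member difference was −0.118 points, 14 of 25 were lower (all bodies 65.6%), the groups stood apart with CSDS lower at Rec114 alone (all bodies 10.1%) and with CSDS higher at 0 members (all bodies 2.58%). Leaving out Control libraries 1, 2 and 3 in turn gave 5, 7 and 6 member bodies with CSDS lower and apart, beside 30.5%, 31.9% and 33.3% of all bodies, and leaving out CSDS library 1 led to 35 calls over all bodies, 0 of them members.

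Of the 3 bodies whose groups stood apart, Rec114 stood at 87.9%, 88.2% and 88.2% in the CSDS libraries, against 90.8%, 89.5% and 89.4% in the Control libraries over 47 cytosines (adjusted p = 0.238). Stag3 stood at 37.5%, 37.2% and 37.05% in the CSDS libraries, against 38.9%, 40.1% and 39.6% in the Control libraries over 113 cytosines, a difference of −2.27 points, or −4.56 with the median over cytosines. Tex14 stood at 52.3%, 48.9% and 47.5% in the CSDS libraries, against 52.4%, 52.3% and 52.4% in the Control libraries over 97 cytosines, where CSDS library 1 was beside the Control libraries. After the mitochondrial correction the Stag3 difference was 0.0111 points. Tex14 turned to 2.67 points when reads were summed over its cytosines instead of averaging cytosines.

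Intermediate bodies held separate low stretches rather than even methylation. In Stag3, tiles of 500 bases stood at 33.8 ± 2.76% in CSDS and 37.4 ± 2.61% in Control 3271 bases inside the gene end and at 8.79 ± 4.37% in CSDS and 11.9 ± 0.902% in Control 7587 bases inside, the first within the overlapping gene Gpc2 and the second at its edge, next to the annotated Stag3 transcript start. In Tex14, tiles stood at 13.6 ± 2.98% in CSDS and 17.8 ± 1.78% in Control at 37838 bases from the gene start and at 13.1 ± 2.73% in CSDS and 16.5 ± 1.83% in Control at 43228 bases. The first overlaps a long non-coding RNA gene and the second lies 128 bases from Rnu3b3, one of several U3 RNA genes inside Tex14. Whether reads could be placed uniquely among these genes was not tested. Spo11, which encodes the break-forming nuclease, stood at 36.2%, 33.9% and 39.96% in the CSDS libraries, against 38.1%, 38.8% and 36.03% in the Control libraries over its body, with a tile of 35 cytosines at 20.4 ± 3.90% in CSDS and 20.6 ± 1.49% in Control. Mnd1 had a pair of tiles at 19760 and 20041 bases at 34.6 ± 3.90% in CSDS and 41.3 ± 3.72% in Control and at 41.4 ± 2.15% in CSDS and 43.3 ± 1.59% in Control, while its other body tiles were above 90%. All errors here are SD over n = 3 libraries, and of these tiles only the one at 19760 bases in Mnd1 had groups that did not overlap (adjusted p = 0.477).

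The lowest bodies were Spata22, Meioc and Ythdc2. Spata22 stood at 4.31%, 18.5% and 4.95% in the CSDS libraries, against 4.44%, 14.4% and 10% in the Control libraries, from 6 cytosines around a transcript start 3181 bases inside the listed gene. Meioc stood at 13.3%, 7.94% and 12.9% in the CSDS libraries, against 7.81%, 25.8% and 13.6% in the Control libraries over 25 cytosines, the largest body difference at −4.34 points, and it was 0.673 points without Control library 2, −8.30 without Control library 1 and −2.62 without CSDS library 2. Its tile at 1029 bases, just past the promoter window, held low cytosines. Ythdc2 stood at 21.8%, 14.6% and 13.7% in the CSDS libraries, against 19.8%, 15.3% and 11.8% in the Control libraries, with low tiles at 1025 and 1329 bases, so in these genes the low promoter stretch ran past 1 kb. Psmc3ip and Meiob, with 5 body cytosines each, differed by −2.27 and 2.23 points, both overlapping. Leaving out single libraries gave −3.64 to −1.57 points at Psmc3ip and −0.108 to 3.55 at Meiob, and windows of 500 bases gave −0.515 at Psmc3ip. The Mnd1 body as a whole averaged 73.8 ± 0.431% in CSDS and 74.9 ± 1.24% in Control (SD, n = 3 each). The remaining bodies ran from 83.6% at Sycp1 to 97.9% at Syce1 over the 6 libraries.

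**Figure D4:**
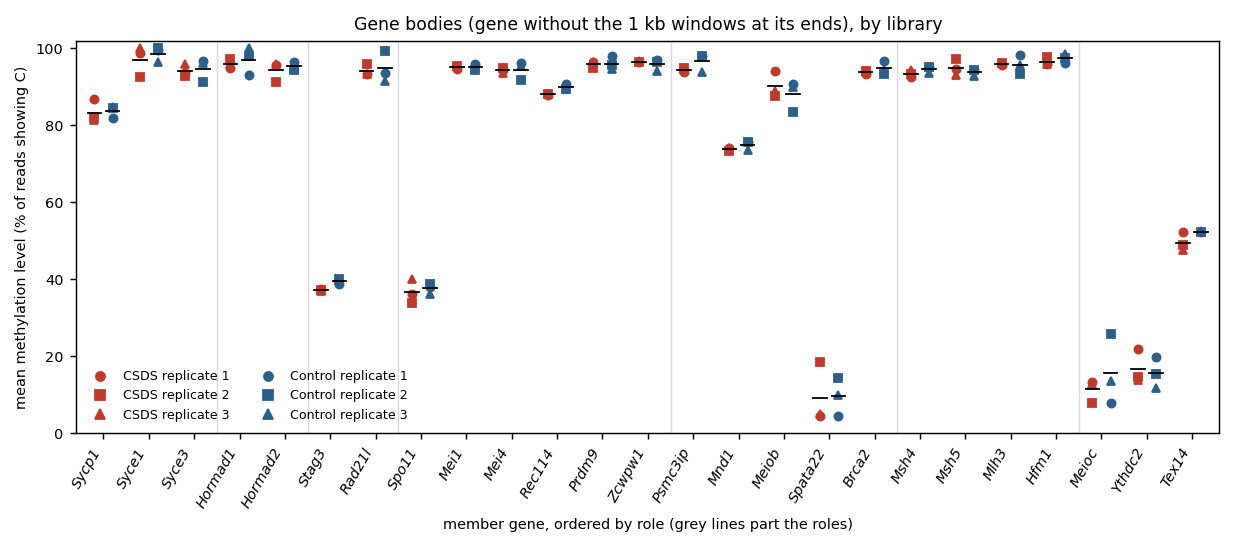
Methylation level in percent of the 25 measured gene bodies, with CSDS libraries to the left of Control libraries and black bars for group means (n = 3 each). Of the bodies 18 lie above 80%, and Stag3, Spo11, Tex14, Meioc, Ythdc2 and Spata22 lie well below the others.

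**Figure D5:**
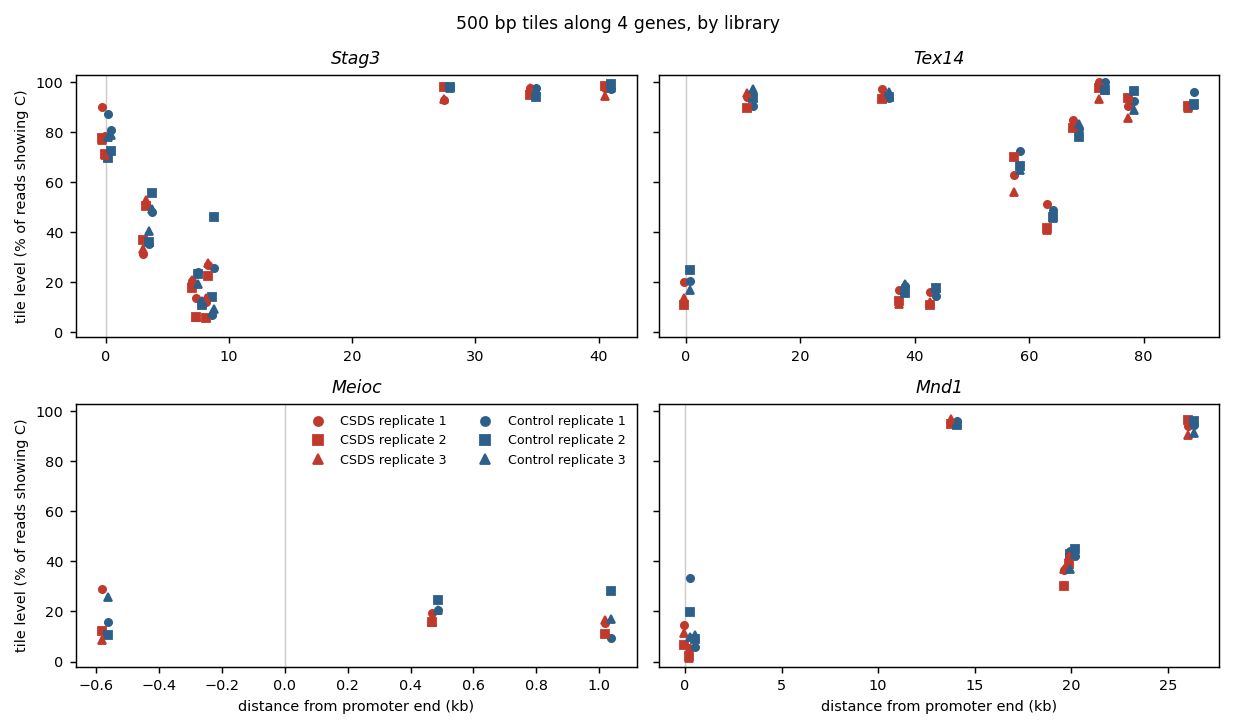
Level in percent of 500-base tiles against distance in kb from the promoter end along Stag3, Tex14, Meioc and Mnd1, with a marker for each CSDS and Control library. Stag3 is high at its listed gene end and low near the annotated transcript start, Meioc and Mnd1 are low at the promoter end, and Tex14 has low tiles deep in the gene.

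Tiles of 500 bases placed the differences within genes. Members held 137 tiles with at least 3 cytosines, and 99 of them were lower in CSDS by mean, beside 73.7% of all tiles. All CSDS libraries were below all Control libraries at 19 and above at 1, beside 15.7% and 1.8% of all tiles. The F test with limma's moderation called 0 of the 162812 tiles fitted, while unadjusted p was under 0.05 at 23 member tiles and 15.6% of all tiles. Without CSDS library 1 it called 2350 tiles, 0 of them in members. The smallest p among member tiles belonged to Sycp1, 406 bases into the gene, at 10.2%, 11.9% and 10.9% in the CSDS libraries, against 16.1%, 18.2% and 18.7% in the Control libraries (−6.66 points, adjusted p = 0.174). Its libraries were tight within each group, which picking the smallest p favours, and after the mitochondrial correction the difference was −3.80 points. Mei4 at 25 bases showed the same values as its window, since all of its promoter-end cytosines lie in that tile. Syce2 at 636 bases stood at 12.4%, 6.67% and 6.84% in the CSDS libraries, against 13.1%, 17.4% and 13.8% in the Control libraries (adjusted p = 0.174), with CSDS library 1 again near Control library 1. Mnd1 at 361 bases stood at 5.37%, 2.06% and 1.47% in the CSDS libraries, against 5.62%, 9.11% and 10.6% in the Control libraries (adjusted p = 0.179). There CSDS library 1 and Control library 1 were nearly equal. In Rec114 the tiles at 342 and −1055 bases from the listed end, the second outside the gene, differed by −4.40 and −4.53 points (adjusted p = 0.174 and 0.184). Prdm9 had groups apart at all 3 of its promoter-end tiles, at −5.54, −4.82 and −4.36 points.

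At the end opposite the promoter 7 members had cytosines and 6 were above 80%. The exception was Mei1, at 17.6%, 10.4% and 11.5% in the CSDS libraries, against 15.4%, 19.9% and 17.04% in the Control libraries over 50 cytosines. Mei1 was thus low at both listed ends. Around the transcript start that the promoter table lists, 12402 bases inside the gene, 8 cytosines averaged 95.2 ± 2.09% in CSDS and 95.7 ± 0.271% in Control (SD, n = 3 each). The low far end of Mei1 lies next to another protein-coding gene, Ccdc134. That gene is 399 bases from the low tile at 57335 bases and overlaps the low tile at 57687 bases. CSDS was lower by mean at 6 of the 7, beside 76.3% of all such ends. At 0 of the 7 did the groups stand apart, beside 17.8% of all such ends with all CSDS libraries below all Control libraries.

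Sequence features of the promoters were compared with those of all promoters in the table. Of the 34 members 31 had a promoter sequence; Spo11, Meiob and Ythdc2 did not. Their 300 bases held a median of 19 CpGs, beside 13 over 17492 genes. GCGGGAA, an E2F motif read on both strands, occurred in 13 (41.9%), beside 6.01% of all promoters. E2F6 is known to repress meiotic genes in somatic mouse cells, but a match is only a match of letters. CACGTG, an E-box, occurred in 7 (22.6%), beside 7.91%. Both GCGGGAA and CACGTG contain a CpG, and the members' sequences held more CpGs. The shares were not compared at matched CpG content. CNCCTCAG, the motif of the meiotic inducer STRA8, occurred in 6 (19.4%), beside 8.57%, and AACTGNC, a MYB motif, in 5 (16.1%), beside 11.9%. CCGG occurred in 20 (64.5%), beside 61.8%, and CACGTG and CCGG read the same on both strands, and none of these motifs contains another. Across 23 members the number of CpGs and the promoter-end level correlated at r = 0.182 (Spearman's rho 0.0594), while across 10904 genes r was −0.409 (rho −0.439). CpGs were counted in the 300 bases at the annotated transcript start, whereas the level came from the window at the listed gene end. At Stag3, Mei1, Rec114 and Msh4 these lie 7995, 12402, 81147 and 1247 bases apart, so the member correlation partly sets unlike places against each other. These correlations are across genes, share the same libraries, and are given as a description.

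Other genes of the pathway, 32 in number and not among the members, were examined in the same way. At the promoter end 21 were measured, 16 of them below 20%, with a median of 13.1% in CSDS and 19.3% in Control. Majin averaged 92.4 ± 1.55% in CSDS and 94.0 ± 0.67% in Control, above every member window. CSDS was lower by mean at 20, with a median difference of −3.82 points, and all CSDS libraries were below all Control libraries at 5 of 21, beside 36.3% of all windows. Blm, a helicase that limits crossing over, averaged 12.9 ± 3.60% in CSDS and 20.6 ± 5.01% in Control (adjusted p = 0.118). Mus81, a nuclease, averaged 3.88 ± 2.64% in CSDS and 10.4 ± 4.42% in Control with overlap, and Rad51c shares its cytosines with Tex14. Errors are SD over n = 3 libraries, and 0 of the 21 were called by the F test with limma's moderation, while 4 of 21 had an unadjusted p under 0.05, beside 39.8% of all windows. Germ cell markers stood at 11.7% to 19.3% in CSDS and 14.9% to 26.99% in Control at 5 of 6 genes measured, and Sertoli cell markers at 9.47% to 89.4% in CSDS and 11.6% to 87.8% in Control at 5 of 5. Leydig cell markers stood at 41.4% to 95.6% in CSDS and 45.99% to 95.98% in Control at 3 of 5, and 0 of 4 immune markers were measured, so the labelled cell type could not be checked from these windows.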

How the data were processed

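Genomic DNA of male germ cells was sequenced by RRBS in 3 CSDS and 3 Control libraries. Per the submitters' processing notes, the tools were Trim Galore 0.5.0 and Bismark 0.20.0 and the genome build was GRCm38. Per the file headers, coverage is the read count at each CpG cytosine, deposited for cytosines with 10 or more reads. Per the file headers, the authors also gave the percentage of those reads called C and the percentage called T.

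Cytosines present in all 6 libraries were kept unless their coverage was among the highest 0.1% in a library. A level is the mean over cytosines, equally weighted, of a region with at least 3. Promoter ends follow the strand of the RefSeq promoter table (GRCm38.p6), and for Spo11, Meiob and Ythdc2 the gene end with more covered cytosines. Reads called C were the rounded product of coverage and percentage. Windows, bodies and 500 bp tiles were each tested over all regions by a quasi-binomial logistic F test (R 4.3.3). Reads were summed per region, dispersions were moderated by limma 3.58.1 and held at 1 or above, and p-values had Benjamini-Hochberg adjustment. The differences, unless said otherwise, average cytosines equally, so the p-value beside a difference does not test that average itself. The signs can differ: the body of Tex14 was −2.85 points by mean and 2.67 summed, and that of Mnd1 −1.07 and 4.22. The test was run on simulated reads first. Tables were handled with Python 3.11.15, numpy 2.4.6 and pandas 2.3.3, and figures drawn with matplotlib 3.10.9. limma on logit values, edgeR 4.0.16, other coverage limits, window sizes and region levels, corrections for unconverted cytosines and leaving out single libraries were tried as alternatives.

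The members and all gene lists were chosen with earlier results of these data known. Genes with full values were the 8 largest promoter-end differences, the 6 highest and 4 lowest promoter ends, the 6 largest body differences, the 6 lowest bodies and 6 tiles of smallest p whose groups did not overlap. Hormad2, Mei1, Dmc1, Psmc3ip and Ythdc2 were given at the promoter end in addition, after their values were seen. Reads carry no molecular identifiers, so depth limits counting error only, and the number of libraries limits the tests. Of the other pathway genes, the 4 with the largest promoter-end differences were to be named, and 1 of them is not reported here.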

Additional observations from a re-analysis of the deposited data

How the results depend on the processing

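Depth differed between windows, from 183 reads in one library to 15977 in another over the member promoter ends, so the thinly read ones carry more counting error. Over all genes, promoter-end calls numbered 0 as reported, 1 with the correction by broadly expressed genes, 48 with limma on logit values, 42 with edgeR and 0 to 203 when single libraries were left out. Body calls numbered 0 to 35 and tile calls 0 to 2350 when single libraries were left out, and tile calls numbered 4 with the mitochondrial and 11 with the broadly expressed gene correction. No member window, body or tile was called under any of these settings. The labels do not say whether same-numbered libraries were paired. Deviations of same-numbered libraries correlated at −0.0979, −0.0574 and −0.00278, and those of differently numbered libraries at −0.0408 to 0.0825. Such correlations cannot show whether the libraries were prepared in pairs. A fit with the replicate block called 0 windows, 0 bodies and 0 tiles. The median member difference at the promoter end was −0.165 points with the mitochondrial correction, 0.448 with the broadly expressed gene correction and −4.48 to −2.10 when single libraries were left out. The count of 7 members with all CSDS libraries lower was 2 with either correction (7.56% and 4.48% of all windows) and 7 to 18 when single libraries were left out (36.3% of all windows with every library, 37.1% to 87.3% without 1). For bodies the median was −0.118 with the mitochondrial correction, 0.0129 with the other and −0.879 to −0.467 on leaving out libraries. The count of 3 bodies with CSDS lower was 1 at a coverage of 20, 1 with reads summed, 5 with 500 bp windows, 1 with either correction, 1 with the median over cytosines and 4 to 7 on leaving out libraries (27.1% to 49.5% of all bodies).

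Of 485 recomputed values for the 33 named windows, bodies and tiles, 451 kept their direction and 34 reversed, in 14 of the 33. With the mitochondrial correction the difference became 0.916 points at the promoter end of Hormad1, 0.773 at Hfm1, 2.13 at Meiob and 0.809 at Rec114, and 0.0111 in the body of Stag3, 3.14 in Spata22 and 1.51 in Spo11. With the broadly expressed gene correction it became 0.448 at Sycp3, 1.58 at Hormad1, 0.211 at Meioc, 1.54 at Hfm1, 2.95 at Meiob and 1.55 at Rec114, and 0.487 in the body of Stag3, 3.96 in Spata22 and 2.09 in Spo11. These corrections shift every level by construction. The Msh4 promoter end was −2.32 with the median over cytosines, and the Tex14 body 2.67 with reads summed and 1.26 with the median. The Ythdc2 body was −0.739 at a coverage of 20, −0.407 with reads summed and −1.33 with 500 bp windows. Leaving out single libraries gave −4.48 to 5.83 at the Msh4 promoter end, and −8.30 to 0.673 in the body of Meioc, −0.108 to 3.55 in Meiob, −4.99 to 2.10 in Spata22, −1.47 to 3.14 in Ythdc2 and −2.55 to 0.469 in Spo11. The cause of the other reversals was not tested.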

Other observations

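By distance from the gene end, the medians of members were lower in the first 1000 bases inside the gene than in the 1000 before it. Between 0 and 500 bases inside, 24 members had a median level of 10.9% in CSDS and 15.1% in Control, beside 10.02% in CSDS and 13.8% in Control over 11548 genes. Between 500 and 1000 bases inside, 7 members had 11.09% in CSDS and 13.4% in Control. Between 500 and 1000 bases outside, 6 members had a median of 27.98% in CSDS and 31.3% in Control, beside 16.98% in CSDS and 21.05% in Control over 2490 genes. Sycp2 at 217 bases stood at 5.40%, 4.78% and 4.28% in the CSDS libraries, against 3.70%, 44.4% and 26.4% in the Control libraries, so that Control libraries 2 and 3 made the difference of −20.03 points. In Ythdc2 a tile of 3 cytosines 42020 bases inside the gene averaged 76.1 ± 14.96% in CSDS and 61.7 ± 11.8% in Control (SD, n = 3 each), with overlapping groups.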
